A study of Rattus norvegicus with 9 samples.

Results

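Fatty acid oxidation and ketone use were examined in the tibialis anterior muscle (TIB) of rats in the course of prolonged fasting, through 36 genes listed by name for their enzymes, transporters and peroxisomal proteins. Of these, 34 were measured, among 14506 genes and 29215 probe sets in all, and each gene stands for its probe set with the highest mean. The list was chosen with earlier results of these data known, so the counts below describe the members and do not test them. Acaa1a and Decr2 are on probe sets that also carry the symbol of another gene and were not analysed here. The RNA came from male Sprague Dawley rats, with 1 Affymetrix Rat Gene 1.0 ST array per rat and no other treatment than food deprivation with free access to water. The 9 rats were 3 fed rats (Fed), 3 rats fasted until phase 2 (P2), when body mass falls slowly and body protein is spared, and 3 rats fasted until phase 3 (P3), when the loss of mass and protein speeds up. Single rats are called Fed 1, Fed 2 and so on, and all values are deposited log2 intensities, on which a difference of 1 is a doubling.

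Muscle takes up fatty acids, activates them to acyl-CoA and moves them into mitochondria on carnitine, where repeated rounds of dehydrogenation, hydration, dehydrogenation and thiolytic cleavage release acetyl-CoA and pass electrons to the respiratory chain. Very long and branched chains are first shortened in peroxisomes. In prolonged fasting the liver turns fatty acids into ketone bodies, which muscle can convert back to acetyl-CoA. These measurements are of whole muscle, in which fewer cells of a type and less RNA per cell cannot be told apart.

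In P2 the median member moved little while single members moved either way, and in P3 most members were lower. In P2 versus Fed, 6 of the 34 members were higher, namely Cpt1a, Cpt1b, Acadl, Decr1, Ehhadh and Crot, beside 5.13% of all probe sets, and 2 were lower, Abcd2 and Pecr, beside 4.15% of all probe sets. In P3 versus Fed, 4 members were higher (15.8% of all probe sets were) and 21 were lower, beside 13.4% of all probe sets. In P3 versus P2, 2 members were higher, beside 8.50% of all probe sets, and 25 were lower, beside 7.52% of all probe sets. The median log2 fold change of the members was 0.06 in P2 versus Fed, -0.50 in P3 versus Fed and -0.71 in P3 versus P2, where the median of all probe sets was 0.01, 0.00 and -0.01. A call here is an adjusted p under 0.05 in limma over all probe sets, and the comparisons of P2 and P3 with the fed state share the same 3 fed rats. The shares of all probe sets include 13582 probe sets with no symbol and were not matched to the members by intensity.

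Of the 6 members that were higher in P2 than in the fed state, 5 were lower again in P3 than in P2 (83.3%). Both comparisons share the same P2 rats, and this count was added after the data were seen. Over the whole array, 121 of the 1500 probe sets that were higher in P2 were lower in P3 than in P2 (8.07%), which is 0.414% of all probe sets. The exception among the members was Ehhadh.

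**Figure D1:**
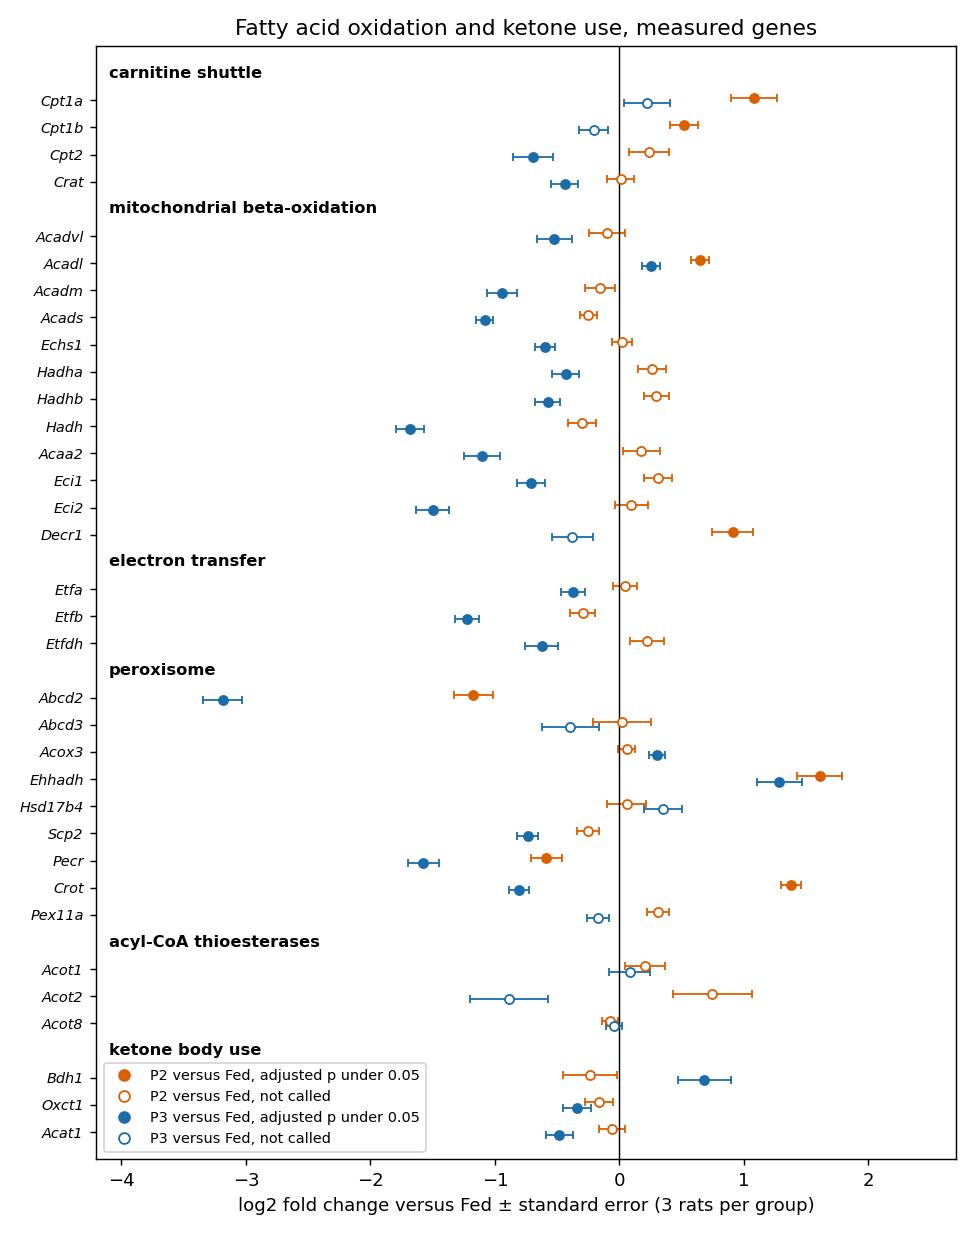
Log2 fold change (x axis) with its standard error of the 34 measured genes (y axis, grouped by role) in P2 versus Fed (orange) and P3 versus Fed (blue), with filled points for an adjusted p under 0.05. The P2 points lie on both sides of 0 and range from -1.17 for Abcd2 to 1.61 for Ehhadh, while most P3 points lie to the left of 0 and reach -3.19 for Abcd2.

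Rat P2 2 stood apart within its group. It had the highest value of the 3 P2 rats in 29 of the 34 members, against 36.9% of all probe sets, and its median member lay 0.35 above the Fed mean. The median member lay at -0.04 in P2 1 and 0.05 in P2 3, and at -0.53, -0.42 and -0.59 in the P3 rats. Without P2 2 the median log2 fold change of the members in P2 versus Fed was -0.01, and without P2 1 it was 0.18. The medians of all probe sets on each array lay between 5.80 and 5.90.

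**Figure D2:**
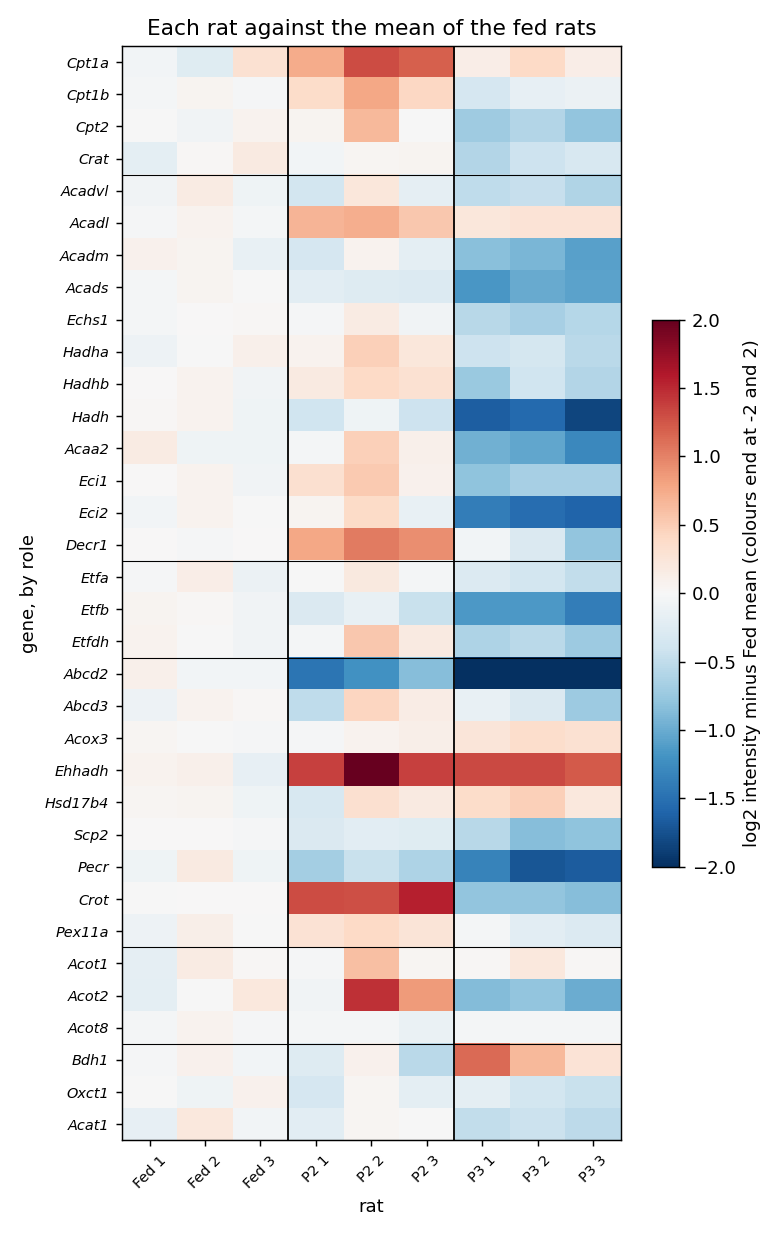
Log2 intensity of each rat (columns, 3 per group) minus the mean of the fed rats for the 34 measured genes (rows, by role), with red above and blue below the Fed mean and colours that end at -2 and 2. The column of P2 2 is redder than those of P2 1 and P2 3, Crot, Cpt1a, Acadl, Decr1 and Ehhadh are red in every P2 rat, and most genes are blue in the 3 P3 rats.

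Sequence is shown from just upstream of the genes with the largest increases in P2, Crot, Ehhadh and Cpt1a, and from where the starts of Hadha and Hadhb face each other. Hadha and Hadhb encode the α and β subunits of 1 enzyme and lie head to head on chromosome 6 (Hadhb at 31873404 to 31907557, Hadha at 31907801 to 31947434) with 243 bases between them, and the first bases of the printed stretch lie within Hadhb. The sequences are those of RefSeq on GRCr8, plus strand, and capitals mark the GC box GGGCGG in either orientation.
Crot, the 250 bases before its start, chr4:26052874-26053123: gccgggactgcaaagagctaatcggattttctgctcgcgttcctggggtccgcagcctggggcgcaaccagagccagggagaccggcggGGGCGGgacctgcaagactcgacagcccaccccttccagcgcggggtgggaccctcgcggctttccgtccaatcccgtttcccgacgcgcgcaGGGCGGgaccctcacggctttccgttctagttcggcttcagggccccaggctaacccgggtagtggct
Ehhadh, the 250 bases before its start, chr11:92746159-92746408: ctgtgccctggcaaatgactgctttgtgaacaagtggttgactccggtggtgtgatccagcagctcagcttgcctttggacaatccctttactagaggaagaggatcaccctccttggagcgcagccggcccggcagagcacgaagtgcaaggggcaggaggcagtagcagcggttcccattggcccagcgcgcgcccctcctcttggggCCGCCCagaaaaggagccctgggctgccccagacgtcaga
Cpt1a, the 250 bases before its start, chr1:209995910-209996159: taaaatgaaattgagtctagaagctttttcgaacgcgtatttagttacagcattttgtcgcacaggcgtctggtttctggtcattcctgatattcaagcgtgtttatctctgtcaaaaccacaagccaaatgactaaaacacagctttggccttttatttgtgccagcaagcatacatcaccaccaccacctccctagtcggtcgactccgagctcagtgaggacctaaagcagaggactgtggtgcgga
Hadha and Hadhb, 200 bases that lie in the windows of both genes, chr6:31907551-31907750: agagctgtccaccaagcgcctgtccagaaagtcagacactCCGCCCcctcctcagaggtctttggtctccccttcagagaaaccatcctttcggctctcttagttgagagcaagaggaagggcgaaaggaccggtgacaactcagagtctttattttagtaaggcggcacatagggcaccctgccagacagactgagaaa

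A window from 250 bases before to 50 after the start was at hand for 30 of the 34 measured members, and not for Acaa2, Acadl, Cpt1b and Decr1. The GC box was found in 25 of the 30 windows (83.3%), against 33.1% of all 33469 rat windows of this length. The printed stretch holds 2 GC boxes for Crot, 1 for Ehhadh and 0 for Cpt1a. The NRF1 motif was in 3 member windows, those of Abcd3, Etfb and Etfdh (10%, against 4.25% of all windows). The letters TATAAA of the TATA box were in that of Echs1 alone (3.33%, against 14.2%). There the matches lay at -233 and -231 from the start, and whether they act as a TATA box was not tested. The direct repeat of PPAR and RXR, which is made of AGGTCA, any base and AGGTCA, was in 0 of the 30 windows and in 0.0538% of all windows, and a looser form with any base at position 4 of both AGGTCA in 0 of the 30 and in 0.415% of all. The ERR site TNAAGGTCA was in 0 of the 30 and in 1.20% of all, and the glucocorticoid receptor repeat, AGAACA, any 3 bases and TGTTC, in 0 of the 30 and in 0.0388% of all. Both strands were searched for exact letters only. For motifs this rare in all windows, 0 of 30 cannot tell the members from other genes. Sites outside these windows were not searched. The windows used for comparison were not restricted to genes measured on the array or expressed in muscle.

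The carnitine shuttle carries long acyl groups across the mitochondrial membranes. In P2, 2 of its 4 measured members were higher, beside 5.13% of all probe sets. All 4 were lower in P3 than in P2, beside 7.52% of all probe sets. Cpt1a encodes the liver form of carnitine palmitoyltransferase 1, which forms acylcarnitine at the outer membrane and is the regulated step of entry. Its log2 values were 6.17, 5.98 and 6.54 in the fed rats, 6.97, 7.54 and 7.44 in P2, and 6.37, 6.64 and 6.36 in P3. All P2 rats were above all fed and all P3 rats, and the fed and P3 rats overlapped. Cpt1a mRNA levels were 2.12-fold higher in P2 versus the fed state (log2 fold change 1.08 ± 0.18 (SE), adjusted p = 0.00714) and lower in P3 versus P2 (-0.86 ± 0.18, adjusted p = 0.0110), with 0.22 ± 0.18 in P3 versus Fed (adjusted p = 0.425).

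Cpt1b is the muscle form of the same enzyme. It read 10.35, 10.45 and 10.36 in Fed, 10.76, 11.16 and 10.80 in P2, and 10.04, 10.22 and 10.27 in P3, so the 3 groups did not overlap. The increase in P2 was 1.43-fold (0.52 ± 0.11, adjusted p = 0.0238), and P3 was 1.65-fold lower than P2 (-0.73 ± 0.11, adjusted p = 0.00244), whereas P3 versus Fed did not pass (-0.21 ± 0.11, adjusted p = 0.229). The P2 call was lost when any 1 of the 3 fed rats was left out (adjusted p between 0.0621 and 0.0769) and with only the groups compared (adjusted p = 0.0548).

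Cpt2, which rebuilds acyl-CoA inside the mitochondrion, gave 9.18, 9.12 and 9.26 in Fed, 9.25, 9.84 and 9.19 in P2, and 8.49, 8.61 and 8.39 in P3. P2 2 alone stood clearly above the fed rats, and all P3 rats lay below all others. Cpt2 was 1.62-fold lower in P3 versus Fed (-0.69 ± 0.16, adjusted p = 0.00916) and 1.91-fold lower in P3 versus P2 (-0.93 ± 0.16, adjusted p = 0.00361). Crat, carnitine acetyltransferase, which buffers acetyl-CoA as acetylcarnitine, was at 11.32, 11.54 and 11.71 in Fed, 11.47, 11.57 and 11.57 in P2, and 10.94, 11.12 and 11.20 in P3. The fed rats spanned the P2 rats and the P3 rats lay below both. Crat was lower in P3 versus Fed (-0.44 ± 0.11, adjusted p = 0.0138) and versus P2 (-0.45 ± 0.11, adjusted p = 0.0205). Without P3 1 both calls were lost (adjusted p = 0.0524 and 0.0725), and the call versus P2 was also lost without P2 2, P2 3 or P3 2 (adjusted p between 0.0515 and 0.0683).

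**Figure D3:**
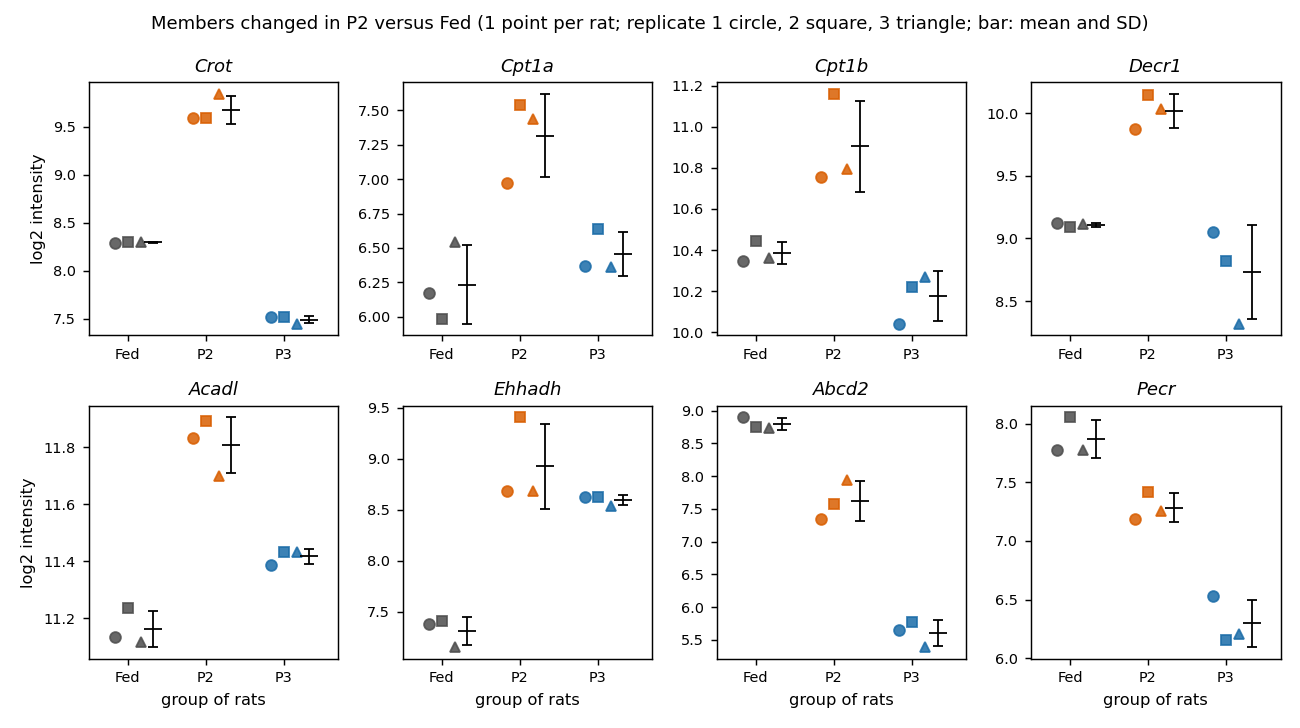
Log2 intensity (y axis, its own range in each panel) of the 8 genes with a call in P2 versus Fed in each rat by group (x axis), with circles, squares and triangles for replicates 1, 2 and 3 and black bars for the mean ± SD of 3 rats. In the panels of Crot, Cpt1a, Cpt1b, Decr1, Acadl and Ehhadh all P2 rats lie above all fed rats, and in those of Abcd2 and Pecr the P2 rats lie between the fed and the P3 rats.

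The mitochondrial β-oxidation enzymes are the core of the pathway. Of their 12 members 2 were higher (Acadl and Decr1) and 0 lower in P2, beside 5.13% and 4.15% of all probe sets. In P3 versus Fed 1 was higher and 10 were lower, beside 15.8% and 13.4% of all probe sets. Against P2, 11 of the 12 were lower in P3, all but Acadvl, beside 7.52% of all probe sets. The first dehydrogenation falls to acyl-CoA dehydrogenases of graded chain length, and in P3 versus Fed Acadl was higher and the others were lower. Acadl, for long chains, read 11.13, 11.23 and 11.12 in Fed, 11.83, 11.89 and 11.70 in P2, and 11.39, 11.43 and 11.43 in P3. The groups did not overlap, with P2 highest and P3 between P2 and Fed. Acadl was 1.57-fold higher in P2 (0.65 ± 0.07, adjusted p = 0.00102) and remained 1.19-fold higher in P3 (0.26 ± 0.07, adjusted p = 0.0266). The P3 call was lost without Fed 1, Fed 3 or any 1 of the P3 rats (adjusted p between 0.0522 and 0.0822), and with a further quantile normalization (0.17, adjusted p = 0.124).

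The dehydrogenases for the other chain lengths did not pass in P2 and were lower in P3. Acads, for short chains, was 2.11-fold lower in P3 versus Fed (-1.08 ± 0.07, adjusted p = 4.85e-06), Acadm, for medium chains, 1.92-fold lower (-0.94 ± 0.12, adjusted p = 0.000349), and Acadvl, for very long chains, 1.44-fold lower (-0.52 ± 0.14, adjusted p = 0.0229). The Acadvl call was lost without Fed 2, P3 1 or P3 3 (adjusted p between 0.0579 and 0.0883), and without P2 1 it was also lower in P3 versus P2 (-0.55, adjusted p = 0.0270). Acads was at 8.89 ± 0.05 (SD, n = 3) in Fed, 8.64 ± 0.03 in P2 and 7.81 ± 0.08 in P3, and its P2 difference of -0.25 ± 0.07 (SE) had an adjusted p of 0.0534, which became 0.0449 with a further quantile normalization.

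The mitochondrial members for hydration and the second dehydrogenation, Echs1, Hadh and Hadha, were lower in P3 versus Fed, as was Hadhb, the thiolase subunit that partners Hadha. Echs1, the short-chain enoyl-CoA hydratase, gave 10.51, 10.56 and 10.57 in Fed, 10.51, 10.71 and 10.47 in P2, and 9.99, 9.88 and 9.98 in P3. Fed and P2 overlapped and the P3 rats lay apart below them. Echs1 was 1.51-fold lower in P3 versus Fed (-0.60 ± 0.08, adjusted p = 0.000449) and 1.54-fold lower versus P2 (-0.62 ± 0.08, adjusted p = 0.000816). Hadh, the dehydrogenase for shorter hydroxyacyl-CoA, read 10.99, 11.04 and 10.89 in Fed, 10.58, 10.89 and 10.56 in P2, and 9.33, 9.42 and 9.14 in P3. It had the largest decrease of the mitochondrial members in P3, 3.21-fold versus Fed (-1.68 ± 0.11, adjusted p = 6.66e-06), with -0.30 ± 0.11 in P2 (adjusted p = 0.146).

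Hadha and Hadhb encode the subunits of the mitochondrial trifunctional protein, which carries out the last steps for long chains. Hadha gave 11.65, 11.74 and 11.85 in Fed, 11.82, 12.23 and 11.97 in P2, and 11.34, 11.39 and 11.21 in P3, and Hadhb 11.17, 11.23 and 11.09, then 11.35, 11.56 and 11.46, then 10.42, 10.76 and 10.58. For both, the P3 rats lay below all others and the P2 mean was the highest. In P2 versus Fed the differences were 0.26 ± 0.11 for Hadha (adjusted p = 0.212) and 0.30 ± 0.10 for Hadhb (adjusted p = 0.113). In P3 versus P2 they were lower by 1.62-fold (-0.69 ± 0.11, adjusted p = 0.00275) and 1.83-fold (-0.87 ± 0.10, adjusted p = 0.000426). In P3 versus Fed Hadhb fell 1.49-fold (-0.57 ± 0.10, adjusted p = 0.00212) and Hadha 1.35-fold (-0.43 ± 0.11, adjusted p = 0.0174), a call that Hadha lost without Fed 3 or P3 3 (adjusted p = 0.0659 and 0.0657). Another probe set of Hadha moved in the same directions (0.25 in P2 versus Fed, -0.56 in P3 versus Fed and -0.81 in P3 versus P2).

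**Figure D4:**
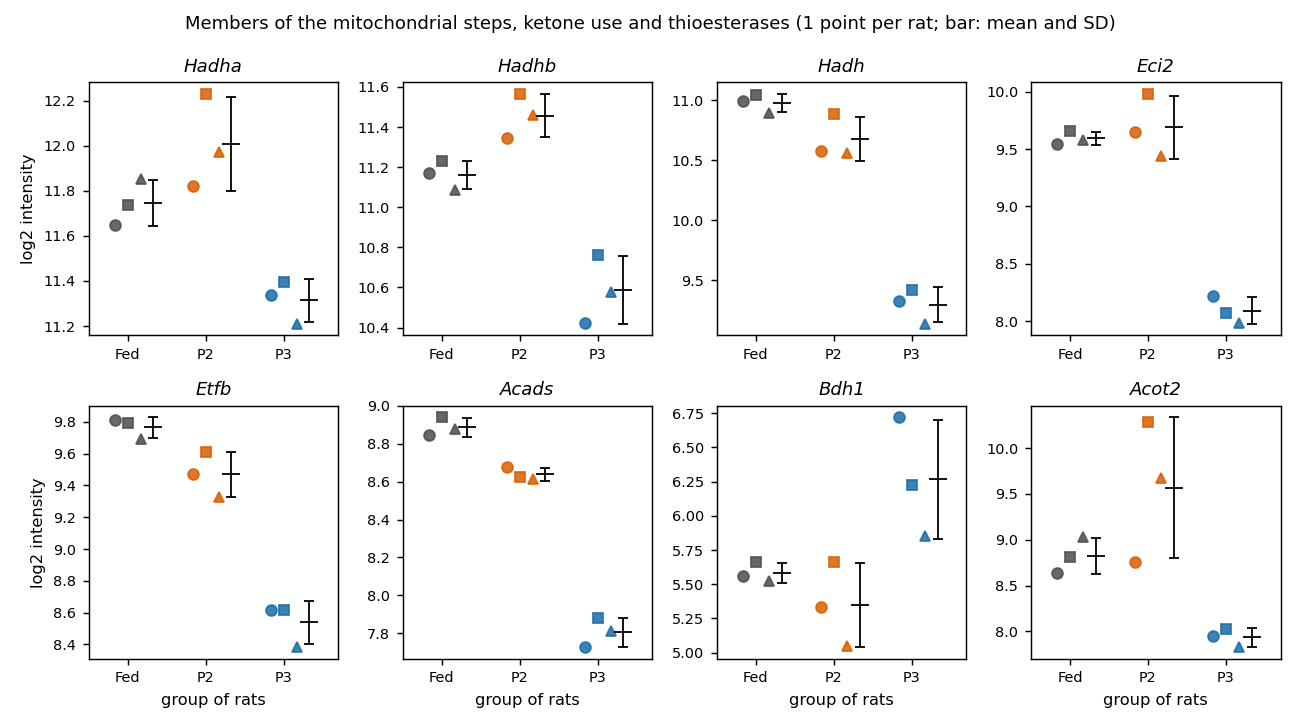
Log2 intensity (y axis, its own range in each panel) of 6 genes of the mitochondrial steps, the ketone gene Bdh1 and the thioesterase Acot2 in each rat by group (x axis), with circles, squares and triangles for replicates 1, 2 and 3 and black bars for the mean ± SD of 3 rats. The P3 rats lie below all others for every gene drawn except Bdh1, where they lie above, and Acot2 shows the widest P2 group, from 8.75 to 10.28.

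Acaa2, another thiolase of the mitochondrial cycle, was at 11.02, 10.77 and 10.77 in Fed, 10.81, 11.32 and 10.95 in P2, and 9.89, 9.81 and 9.56 in P3. Fed and P2 overlapped, and all P3 rats were lower. It was 2.14-fold lower in P3 versus Fed (-1.10 ± 0.15, adjusted p = 0.000414) and 2.43-fold lower versus P2 (-1.28 ± 0.15, adjusted p = 0.000411).

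Decr1, Eci1 and Eci2 prepare unsaturated chains for the cycle, and the P2 mean of all 3 lay above that of Fed. Decr1, the dienoyl-CoA reductase, read 9.12, 9.09 and 9.12 in Fed, 9.87, 10.15 and 10.03 in P2, and 9.05, 8.82 and 8.32 in P3. The groups did not overlap, and the P3 rats were the most spread. Decr1 was 1.88-fold higher in P2 versus Fed (0.91 ± 0.16, adjusted p = 0.0102) and 2.44-fold lower in P3 versus P2 (-1.29 ± 0.16, adjusted p = 0.000787), while P3 versus Fed did not pass (-0.38 ± 0.16, adjusted p = 0.128) unless P3 1 was left out (-0.54, adjusted p = 0.0315).

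The isomerases Eci1 and Eci2, which move a double bond, did not pass in P2, and their difference from Decr1 was not tested. Eci1 gave 8.85, 8.92 and 8.77 in Fed, 9.16, 9.37 and 8.93 in P2, and 8.04, 8.18 and 8.19 in P3, with no overlap between groups, a difference of 0.31 ± 0.11 in P2 (adjusted p = 0.140; 0.0492 without P2 3) and -0.71 ± 0.11 in P3 (adjusted p = 0.00117). Eci2 gave 9.54, 9.66 and 9.58 in Fed, 9.65, 9.98 and 9.44 in P2, and 8.22, 8.07 and 7.99 in P3. The fed rats of Eci2 fell within the P2 range and the P3 rats lay far below, 2.83-fold lower versus Fed (-1.50 ± 0.13, adjusted p = 3.13e-05) and 3.02-fold lower versus P2 (-1.60 ± 0.13, adjusted p = 6.88e-05). For Eci1 the difference between P3 and P2 was -1.02 ± 0.11 (adjusted p = 0.000335).

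Electrons from the first dehydrogenation pass through the electron transfer flavoprotein, encoded by Etfa and Etfb, to its ubiquinone oxidoreductase, Etfdh. None of the 3 passed in P2, and all 3 were lower in P3 versus both other states. Of all probe sets, 13.4% were lower in P3 versus Fed and 7.52% versus P2. Etfb read 9.81, 9.79 and 9.69 in Fed, 9.47, 9.61 and 9.33 in P2, and 8.62, 8.62 and 8.38 in P3. The groups stepped down without overlap, by -0.30 ± 0.10 in P2 (adjusted p = 0.108) and -1.23 ± 0.10 in P3 (2.34-fold lower, adjusted p = 1.93e-05). Its partner Etfa gave 11.00, 11.15 and 10.91 in Fed, 11.01, 11.22 and 10.98 in P2, and 10.75, 10.65 and 10.54 in P3. Fed and P2 overlapped for Etfa, and P3 was lower by 1.30-fold versus Fed (-0.37 ± 0.10, adjusted p = 0.0189) and 1.34-fold versus P2 (-0.42 ± 0.10, adjusted p = 0.0185). These Etfa calls were lost without P3 3 (adjusted p = 0.0710 and 0.0723), the former also without Fed 2 (0.0720) and the latter without P2 2 or P3 2 (0.0568 and 0.0521). Etfdh was at 10.40, 10.32 and 10.26 in Fed, 10.28, 10.86 and 10.50 in P2, and 9.71, 9.79 and 9.60 in P3, which put P3 below all others, with -0.62 ± 0.13 versus Fed (adjusted p = 0.00680) and -0.85 ± 0.13 versus P2 (adjusted p = 0.00251).

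The peroxisomal members spanned the widest range of log2 fold changes of the 6 roles, in P2 versus Fed as in P3 versus Fed. Of 9 measured, 2 were higher and 2 lower in P2 versus Fed, beside 5.13% and 4.15% of all probe sets. In P3 versus Fed 2 rose and 4 fell, beside 15.8% and 13.4% of all probe sets. In P3 versus P2 1 was higher and 5 were lower, beside 8.50% and 7.52% of all probe sets. Crot, carnitine octanoyltransferase, hands shortened acyl groups to carnitine for export to mitochondria. It read 8.29, 8.30 and 8.30 in Fed, 9.59, 9.59 and 9.84 in P2, and 7.51, 7.51 and 7.45 in P3. The groups were far apart, with P2 above and P3 below the fed rats. Crot was higher in P2 versus Fed (1.38 ± 0.08, adjusted p = 7.35e-05), 1.75-fold lower in P3 versus Fed (-0.81 ± 0.08, adjusted p = 7.53e-05) and 4.55-fold lower in P3 versus P2 (-2.19 ± 0.08, adjusted p = 1.91e-06). No other member had calls in opposite directions against the fed state, and these 3 calls held with each array left out.

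Ehhadh, the bifunctional enzyme that hydrates and dehydrogenates acyl-CoA in the peroxisome, had the largest increase of the members. Its values were 7.38, 7.41 and 7.15 in Fed, 8.68, 9.41 and 8.69 in P2, and 8.63, 8.63 and 8.54 in P3. All fasted rats were above all fed rats, and the P2 rats, led by P2 2, lay above the P3 rats. Ehhadh was 3.05-fold higher in P2 (1.61 ± 0.18, adjusted p = 0.00102) and 2.44-fold higher in P3 (1.28 ± 0.18, adjusted p = 0.000599), and P3 versus P2 did not pass (-0.33 ± 0.18, 95% interval -0.74 to 0.08, adjusted p = 0.317).

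Abcd2, a peroxisomal importer of very long-chain acyl-CoA, showed the opposite pattern and the largest change of all members. It gave 8.90, 8.74 and 8.73 in Fed, 7.34, 7.57 and 7.94 in P2, and 5.65, 5.78 and 5.39 in P3, with wide gaps between the groups. Abcd2 was 2.26-fold lower in P2 (-1.17 ± 0.16, adjusted p = 0.00237), 9.10-fold lower in P3 versus Fed (-3.19 ± 0.16, adjusted p = 1.40e-06) and 4.03-fold lower in P3 versus P2 (-2.01 ± 0.16, adjusted p = 5.35e-05). Pecr, the peroxisomal trans-2-enoyl-CoA reductase, also stepped down, from 7.78, 8.06 and 7.78 in Fed to 7.19, 7.42 and 7.25 in P2 and 6.53, 6.15 and 6.20 in P3. Its groups did not overlap, and it was lower in P2 (-0.59 ± 0.12, adjusted p = 0.0202) and 2.98-fold lower in P3 versus Fed (-1.58 ± 0.12, adjusted p = 1.76e-05). Without Fed 2 or P2 3 the P2 call of Pecr was lost (adjusted p = 0.0738 and 0.0718).

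Pex11a, a peroxin of peroxisome division, gave 6.11, 6.33 and 6.20 in Fed, 6.50, 6.61 and 6.48 in P2, and 6.18, 6.01 and 5.95 in P3. The P2 rats lay above the others, while Fed and P3 overlapped. Its increase in P2 did not pass (0.31 ± 0.09, adjusted p = 0.0608), and it was lower in P3 versus P2 (-0.48 ± 0.09, adjusted p = 0.00523). Scp2, which carries sterols and the thiolase for branched chains, was 1.67-fold lower in P3 versus Fed (-0.74 ± 0.09, adjusted p = 0.000179), and lower in P2 only in the fit without P3 1 (-0.25, adjusted p = 0.0453). Acox3, an oxidase for branched chains, was 1.23-fold higher in P3 versus Fed (0.30 ± 0.07, adjusted p = 0.00827). Its difference from P2 of 0.24 ± 0.07 (adjusted p = 0.0383) was lost with any 1 rat left out but P2 3 (adjusted p between 0.0536 and 0.111). The importer Abcd3 and the multifunctional enzyme Hsd17b4 passed in no comparison of all 9 rats. Without P2 1, Hsd17b4 was higher in P3 versus Fed (0.35, adjusted p = 0.0167; 0.0235 with only the groups compared) and Abcd3 lower in P3 versus P2 (-0.68, adjusted p = 0.0325).

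The thioesterases free fatty acids from CoA. Acot2, the mitochondrial form, read 8.63, 8.81 and 9.03 in Fed, 8.75, 10.28 and 9.67 in P2, and 7.95, 8.03 and 7.83 in P3. P2 1 lay among the fed rats, P2 2 and P2 3 above them, and all P3 rats below. Neither the P2 difference (0.75 ± 0.32, adjusted p = 0.205) nor the P3 difference from Fed (-0.89 ± 0.32, adjusted p = 0.0657) passed, and P3 was 3.10-fold lower than P2 (-1.63 ± 0.32, adjusted p = 0.00712). The P2 difference turned on P2 1, without which it was 1.15 (adjusted p = 0.00785). P3 versus Fed passed without P2 1 (adjusted p = 0.00378) or P2 2 (adjusted p = 0.0163). Its estimate stayed at -0.89 in both fits, as P2 rats enter it only through the shared spread. P3 versus Fed also passed with a further quantile normalization (0.0464), with a mean log2 of at least 5 (0.0415) and with only the groups compared (0.00143). Acot1, the cytosolic form, gave 2.85, 3.19 and 3.05 in Fed, 3.00, 3.63 and 3.07 in P2, and 3.05, 3.24 and 3.05 in P3, at percentile 5.49 of all probe sets by mean, and the groups overlapped. It passed in no comparison, and neither did the peroxisomal Acot8. Acot8 read the same 5.86 in Fed 1, P2 1, P2 2 and all P3 rats, which was looked up after the values were seen.

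Ketone use comprised 3 members, and 0 passed in P2 versus Fed. Bdh1, which interconverts β-hydroxybutyrate and acetoacetate, gave 5.56, 5.66 and 5.53 in Fed, 5.33, 5.66 and 5.05 in P2, and 6.72, 6.22 and 5.85 in P3. The P3 rats lay above all others and were widely spread, while Fed and P2 overlapped. Bdh1 was 1.61-fold higher in P3 versus Fed (0.68 ± 0.22, adjusted p = 0.0416) and 1.89-fold higher versus P2 (0.92 ± 0.22, adjusted p = 0.0186). The call versus Fed was lost with any 1 rat left out but P2 2, P2 3 and P3 3 (adjusted p between 0.0536 and 0.116), and the call versus P2 without P2 3 or P3 2 (adjusted p = 0.0692 and 0.0524) and with only the groups compared (0.0691).

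The next enzymes of ketone use moved the other way. Oxct1, the CoA transferase that commits acetoacetate to oxidation, was 1.27-fold lower in P3 versus Fed (-0.34 ± 0.11, adjusted p = 0.0485), at percentile 24.9 of all probe sets by mean. That call was lost in 6 of the 9 fits with 1 rat left out, those without a fed rat, P2 3, P3 2 or P3 3 (adjusted p between 0.0701 and 0.150). Acat1, the thiolase that splits acetoacetyl-CoA, was at 10.74, 11.12 and 10.86 in Fed, 10.70, 10.95 and 10.90 in P2, and 10.41, 10.47 and 10.39 in P3. Fed and P2 overlapped and P3 lay below both, lower versus Fed (-0.48 ± 0.11, adjusted p = 0.00814) and versus P2 (-0.42 ± 0.11, adjusted p = 0.0264). The latter call was lost without P2 2, P2 3 or any 1 P3 rat (adjusted p between 0.0567 and 0.0868). Slc16a1, a transporter of ketone bodies and lactate that was picked after its values were seen, was higher in P3 versus Fed (0.70, adjusted p = 0.00735) and versus P2 (0.95, adjusted p = 0.00276).

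Further steps of the pathway, beyond the members, were measured through 33 of 42 listed genes. In P2 versus Fed 5 were higher and 4 were lower, beside 5.13% and 4.15% of all probe sets. In P3 versus Fed 6 rose and 10 fell, beside 15.8% and 13.4% of all probe sets. In P3 versus P2 2 were higher and 10 lower, beside 8.50% and 7.52% of all probe sets. Mlycd, the decarboxylase that removes malonyl-CoA, an inhibitor of carnitine palmitoyltransferase, moved in the same directions as Cpt1a and Cpt1b, with 0.94 in P2 versus Fed (adjusted p = 0.00719) and -1.16 in P3 versus P2 (adjusted p = 0.00109). Acacb, a carboxylase that forms malonyl-CoA, was picked after its values were seen. It was also higher in P2 versus Fed (0.55, adjusted p = 0.0235) and did not pass in P3 versus P2 (-0.29, adjusted p = 0.160). Slc25a20, the carnitine-acylcarnitine carrier of the inner membrane, did not pass in P2 (0.11) and was lower in P3 versus P2 (-1.42), as were Acot13 (-1.47), a thioesterase, and Acad10 (-1.28). In P2 versus Fed the other largest differences were 0.82 for Acad11, 0.72 for Acot9 and -0.69 for Acox2, the oxidase for bile acid precursors and branched chains.

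Regulators of the pathway were measured through 17 of 19 listed genes. Of these, 2 were higher and 3 lower in P2 versus Fed, beside 5.13% and 4.15% of all probe sets. In P3 versus Fed 5 were higher and 7 lower, beside 15.8% and 13.4% of all probe sets. In P3 versus P2 4 were higher and 4 lower, beside 8.50% and 7.52% of all probe sets. Ppargc1b, a coactivator of oxidative genes, was lower in P2 (-1.22, adjusted p = 0.000224) and in P3 (-2.55), and its relative Ppargc1a did not pass in P2 (-0.39, adjusted p = 0.130), whereas it was lower in P3 (-1.91 versus Fed and -1.52 versus P2). The nuclear receptors Esrrg and Rxrg were lower in P2 (-0.86 and -0.65), and Rxrg was lower again in P3 versus P2 (-2.02). Klf15 and Foxo1, factors of the fasting response, were higher in P2 (1.79 and 1.73) and further up in P3 versus Fed (3.51 and 2.83). Lpin1 was higher in P3 versus P2 (1.58).

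Lipid uptake and activation, which feed the pathway, were measured through 13 genes. In P2 versus Fed 4 were higher and 1 lower, beside 5.13% and 4.15% of all probe sets. In P3 versus Fed 3 were higher and 6 lower, beside 15.8% and 13.4% of all probe sets. In P3 versus P2 2 were higher and 6 lower, beside 8.50% and 7.52% of all probe sets. The lipases Pnpla2 and Lipe were higher in P2 (1.68 and 0.98), and Lipe was lower in P3 versus P2 (-1.32). Among the acyl-CoA synthetases, Acsl4 was higher in P2 (1.49), Acsl6 lower in P2 (-1.33) and lower again in P3 versus P2 (-1.75), and Acsl1 lower in P3 versus P2 (-1.78). Fabp3, the muscle fatty acid binding protein, was lower in P3 versus P2 (-3.35). The 3 genes higher in P3 versus Fed were Acsl4 (2.73), Pnpla2 (1.93) and the fatty acid transporter Cd36 (1.47). Acsl4 and Cd36 were also the 2 genes higher in P3 versus P2 (1.24 and 0.56). These increases in P3 were picked after the values were seen.

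Markers of other cells moved with some of these groups, and their part in the members' changes was not tested. Adipocyte markers, of which 11 of 12 were measured, had a summed linear intensity of 1421 to 1539 in Fed, 2315 to 2548 in P2 and 1028 to 1279 in P3. In P2 versus Fed 5 of them were higher and 1 lower, beside 5.13% and 4.15% of all probe sets. Lipe stands in this list too. Among the P2 rats their sum was 2548 in P2 1, 2381 in P2 2 and 2315 in P2 3. The 9 fibroblast markers summed to 15364 to 17406 in Fed, 6239 to 11926 in P2 and 4233 to 6653 in P3, with the highest P2 sum in P2 2. The 14 muscle fibre markers summed to 129127 to 130793 in Fed, 118930 to 122154 in P2 and 104497 to 109226 in P3. A linear sum weighs the brightest genes most. Of the 14, 2 fell in P2 against Fed (4.15% of all probe sets), Myh7 (-0.88) and Pvalb (-0.53), and 0 rose. In P3 against Fed 5 fell (13.4%) and 0 rose, led by Pvalb (-1.87), Tnnt1 (-0.96), Myh7 (-0.94) and Mb (-0.81). Of the P2 rats, P2 2 had the highest Myh2 (12.86, against 12.08 and 12.14), a gene with no call. It also had the lowest Pvalb (12.43, against 12.88 and 12.63). These values were picked after they were seen. Macrophage sums ran from 1213 to 2074 and endothelial sums from 2723 to 4192, with overlap between the groups, and the 6 hepatocyte markers stayed between 163 and 180.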

How the data were processed

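Total RNA of the tibialis anterior muscle of 9 male rats, 3 per group, was hybridized to 1 array each. The authors made the deposited log2 intensities with Affymetrix GCOS and Expression Console 1.1, with a sketch quantile normalization between arrays and RMA median polish. Groups come from the labels, replicates are separate rats, and p-values measure the spread between them. Precision is limited by 3 arrays per group.

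All 29215 probe sets were tested in R 4.3.3 with limma 3.58.1 (lmFit on 3 group means, eBayes with defaults, 2.87 prior degrees of freedom), with Benjamini-Hochberg adjustment over all probe sets of a comparison. The fit was tested on simulated data. Gene symbols come from the platform annotation (15310 probe sets with 1 symbol, 323 with several, 13582 with none). ± after a log2 fold change is its standard error. The members and lists were chosen with earlier results of these data known. All measured members may be named, with the values of each rat for those called in P2, those on opposite sides of Fed in P2 and P3 with a call in P3 versus P2, and the 2 of each role most changed in P3. Genes of other lists were named by size of change, at most 4 per list for P2 versus Fed and 4 for P3 versus P2. Values beyond these limits are said to be picked after they were seen. Replicate numbers did not pair the rats (correlations of deviations from -0.243 to 0.123). Alternatives were another quantile normalization, centring of each array on its median, a floor of 5 on the mean log2, an intensity trend with robust moderation, only the groups compared, a replicate block, the methods' ANOVA and Tukey test at p under 0.001 with and without adjustment, averages over a gene's probe sets, and each array left out. The count of members higher in P2 and lower in P3 versus P2 was added after seeing the data. Promoter windows are RefSeq's on GRCr8, which the arrays do not use. Figures were drawn with matplotlib 3.10.9 in Python 3.11.15.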

Additional observations from a re-analysis of the deposited data

Results flagged for a closer look

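For 16 members the mean of P2 and the mean of P3 lay on opposite sides of the fed state and the difference between P3 and P2 had an adjusted p under 0.05 in limma. In 15 of them the P2 mean lay above and the P3 mean below the fed state, and most of these P2 differences had no call. For Crat, Echs1, Etfa and Eci2 they were 0.01, 0.02, 0.05 and 0.10. Without P2 2 they fell below 0 (-0.002, -0.05, -0.03 and -0.05). The share of all probe sets that meet the same rule was not determined. The log2 difference of P3 from P2 was -0.73 for Cpt1b, -0.93 for Cpt2 and -0.45 for Crat in the carnitine shuttle. Among the mitochondrial enzymes it was -0.62 for Echs1, -0.69 for Hadha, -0.87 for Hadhb, -1.28 for Acaa2, -1.02 for Eci1, -1.60 for Eci2 and -1.29 for Decr1. It was -0.42 for Etfa and -0.85 for Etfdh in electron transfer, -2.19 for Crot and -0.48 for Pex11a in the peroxisome, and -1.63 for the thioesterase Acot2. Bdh1 was the reverse case, with P2 below and P3 above the fed state and a difference of 0.92. Of the 16, Crot alone had a call against the fed state in both P2 and P3.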

How the results depend on the processing

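No direction that had a call was reversed under any alternative run. The counts of members moved most with the methods' ANOVA and Tukey test at p under 0.001. It called 3 members in P2 versus Fed (3 higher, 0 lower), 10 in P3 versus Fed (0 higher, 10 lower) and 11 in P3 versus P2 (0 higher, 11 lower). With adjustment of the ANOVA it called 1 in P2 versus Fed (1 higher, 0 lower), 4 in P3 versus Fed (0 higher, 4 lower) and 4 in P3 versus P2 (0 higher, 4 lower). Members higher in P2 and lower again in P3 numbered 1 with either form. The shares of all probe sets called with either form were not determined, so these counts have no background beside them. The 2 members higher in P3 versus P2 became 1 with a further quantile normalization, 1 with an intensity trend and robust moderation and 0 with only the groups compared. With the replicate number as a block, although the numbers share nothing but a label, they were 1, Oxct1 in P3 versus Fed was lost (adjusted p = 0.0949), Acadvl in P3 versus P2 was gained (adjusted p = 0.0462), Acox3 in P3 versus P2 was lost (adjusted p = 0.0860), and no other call of a member changed.

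With each array left out, members changed numbered 6 to 9 in P2 versus Fed (5 to 7 higher, 1 to 3 lower). In P3 versus Fed they numbered 20 to 26 (2 to 4 higher, 17 to 22 lower). In P3 versus P2 they numbered 22 to 28 (0 to 1 higher, 22 to 27 lower). Members higher in P2 and lower again in P3 numbered 4 to 6. The shares of all probe sets called in these fits were not determined. The median log2 fold change of the members ran from -0.01 (without P2 2) to 0.18 (without P2 1) in P2 versus Fed, from -0.56 to -0.44 in P3 versus Fed and from -0.79 to -0.59 in P3 versus P2. Low intensities, as of Acot1 and Oxct1 among the members, and identical values in several rats, as of Acot8, allow little to be read from small differences.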
